A study of Mus musculus with 2 samples.

Results

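The genes of central carbon metabolism were followed in the mouse mammary carcinoma line 4T1, as 48 members that carry glucose to pyruvate and lactate, through the pentose phosphate pathway, or into the tricarboxylic acid (TCA) cycle. They were taken by symbol from a fixed list, and all 48 were found among the 51912 rows with Ensembl identifiers. The study measured messenger RNA by sequencing in 2 libraries, 1 per group. In the co-culture group, 4T1 cells in the lower chamber of a transwell shared medium for 3 days with M2 macrophages, the alternatively activated form, in the upper chamber. In the control group, the same line was labelled as control 4T1 cells, and the sources used here do not say whether an insert without macrophages was present. The title of the co-culture library says 4T2 where its treatment label says 4T1. No genotype or treatment other than the macrophages is named for either group.

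Glycolysis splits glucose into pyruvate in the cytosol, in a preparatory phase that spends ATP and a payoff phase that yields it. Pyruvate is then reduced to lactate by lactate dehydrogenase or carried into mitochondria, where the pyruvate dehydrogenase complex turns it into acetyl-CoA for the TCA cycle. The pentose phosphate pathway branches off at glucose 6-phosphate and supplies NADPH and ribose. Several steps have isoforms encoded by separate genes, and tumour lines are known for high glycolytic flux with lactate release.

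Values are TPM, a length-normalised share of each library, so levels can be compared between genes. Differences are log2 ratios, log2((co-culture TPM + 1)/(control TPM + 1)), positive where co-culture was higher. Each group had a single library, so there is no replicate error and no test, and every difference describes these 2 libraries only. Depth cannot be read from TPM. A gene was called detected at a mean of at least 1 TPM over both libraries, which 11258 genes and 45 of the 48 members reached. Over all detected genes the median log2 ratio was 0.17, the 25th percentile -0.14 and the 75th percentile 0.48, and 64.5% of them were higher and 35.4% lower in co-culture. A higher value alone therefore sets no member apart. The median over all detected genes became 0.06 after division by the median ratio of abundant genes and -0.01 after TMM scaling (a trimmed mean of the ratios). The share of higher genes among those at least 2-fold different was 69.8%, 58.1% with the first scaling and 49.4% with the second. In bulk RNA, fewer cells of a type and less RNA per cell cannot be told apart. Of 20 macrophage markers, Cd68 and Cd14 were detected and 12 were listed at 0 in both libraries, among them Adgre1, Tyrobp, Fcer1g and Ptprc. The markers summed to 40.6 TPM in co-culture and 66.7 TPM in control, and to 0.47 and 0.09 TPM without Cd68 and Cd14. Of the markers of the labelled cells, Krt8 stood at 630.4 and 548 TPM and Vim at 4066 and 4590.2 TPM in co-culture and control, while Epcam was listed at 0 in both and Cdh1 at 0.01 and 0.04 TPM. Of the 13 epithelial and 4T1 markers 9 were detected, with a median log2 ratio of 0.72. Of these 8 were higher in co-culture and 5 at least 1.5-fold higher, beside 64.5% and 18.7% of all detected genes. The 5 were Krt19 (1.63), Cd24a (0.92), Itga6 (0.86), Lcn2 (0.75) and Cldn3 (0.72). Krt19 was low, at 2.64 TPM in co-culture and 0.18 TPM in control.

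The glycolytic enzymes were higher in co-culture, while the pentose phosphate genes and most genes of pyruvate entry were slightly lower. All 15 members that encode enzymes of the preparatory and payoff phases had positive log2 ratios, with a median of 0.38, and 11 of them lay above the median of all detected genes. Of these 15, 5 were at least 1.5-fold higher, beside 18.7% of all detected genes. Of the 6 pentose phosphate members 5 were lower (median -0.15), and so were 6 of 9 pyruvate entry members (median -0.04). In the group of the TCA cycle and its linked dehydrogenases 6 of 10 were lower (median -0.06). Of all detected genes 64.5% were higher and 35.4% lower. Among the lower pyruvate entry members, Pcx (-0.03), Pdha1 (-0.04) and Pdk2 (-0.06) differed little. The means were 0.0168 for pyruvate entry and 0.12 for the TCA group, opposite in sign to their medians. After median ratio scaling 12 of the 15 glycolytic enzymes were higher, and after TMM scaling 11 were, with medians of 0.27 and 0.20. Of all 11258 detected genes, 6245 were higher with the first scaling and 5553 with the second. Gpi1, Pfkm and Gapdh (its own row, without the near-identical copies described below) were below 0 with both scalings, and Aldoa with the second. Both scalings lower every ratio, by log2 shifts of about -0.12 and -0.19. The pentose phosphate, pyruvate entry and TCA medians, already below 0, therefore could not rise above it.

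**Figure D1:**
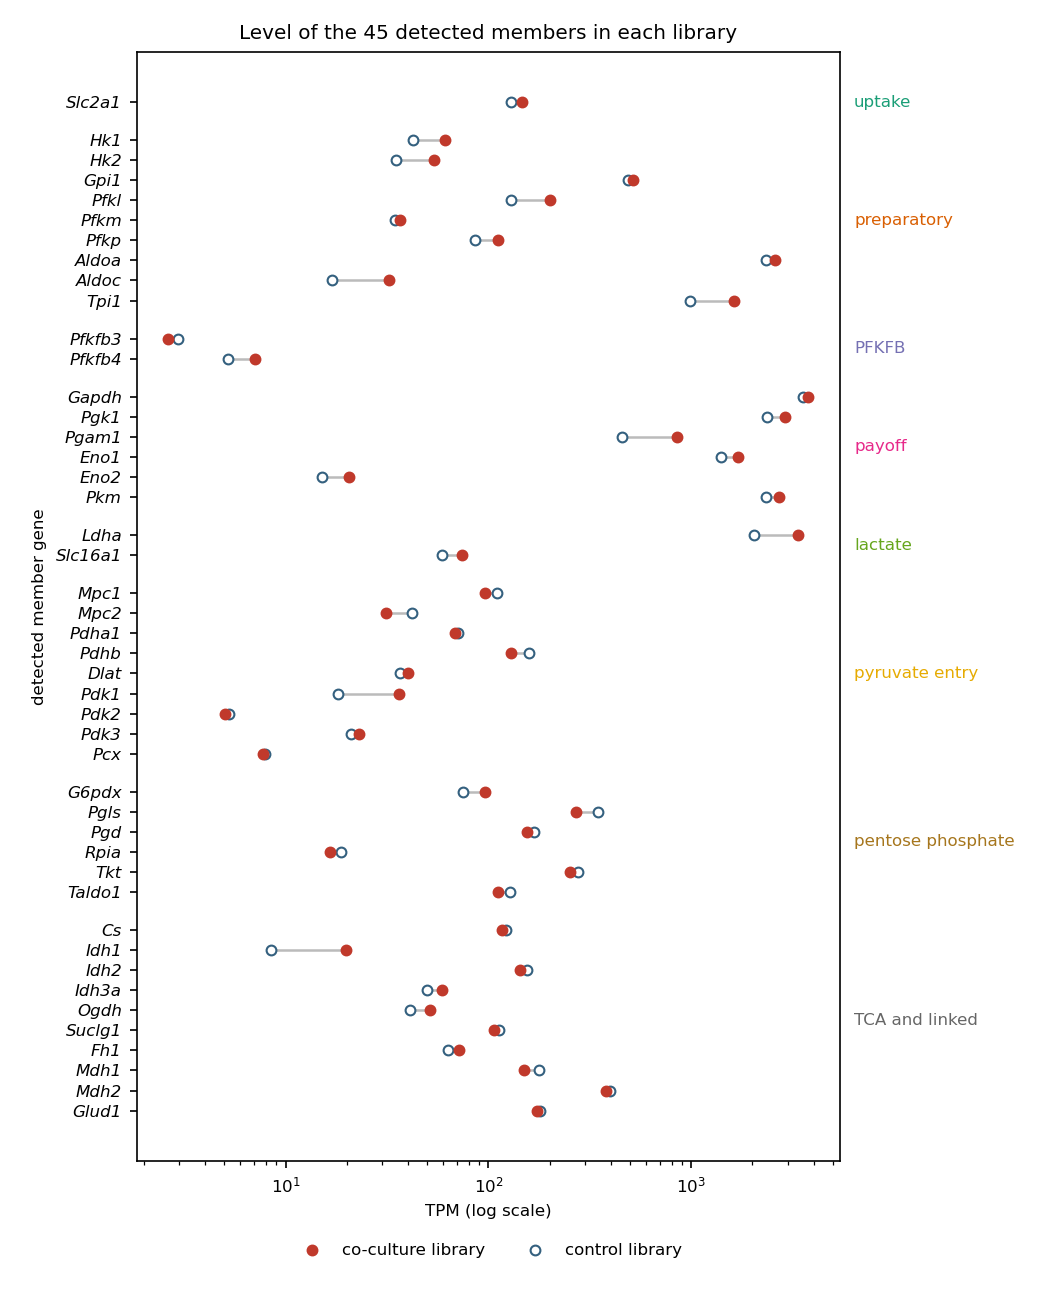
TPM of the 45 detected members (vertical axis, grouped by role) in the co-culture library (filled points) and the control library (open points), on a log axis, with 1 library per group and no error. Glycolytic genes fill the right side, with Gapdh at 3756 TPM in co-culture and 3540.5 TPM in control, and the widest gap is that of Idh1.

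Over the whole list, 8 of 45 detected members were at least 1.5-fold higher in co-culture, against a background of 18.7% of all detected genes, so the share of the members was near it. These were Idh1, Pdk1, Pgam1, Aldoc, Tpi1, Ldha, Pfkl and Hk2. None was 1.5-fold lower, where the background was 6.38%. By the 2-fold rule Idh1 was higher, where the background was 4.95%, and no member was lower, where it was 2.14%. With TMM scaling Idh1, Pdk1, Pgam1 and Aldoc kept 1.5-fold, none reached 2-fold and Mpc2 was 1.5-fold lower. Of all 11258 detected genes, 1230 were 1.5-fold higher with that scaling, 1168 were 1.5-fold lower and 345 were 2-fold higher.

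**Figure D2:**
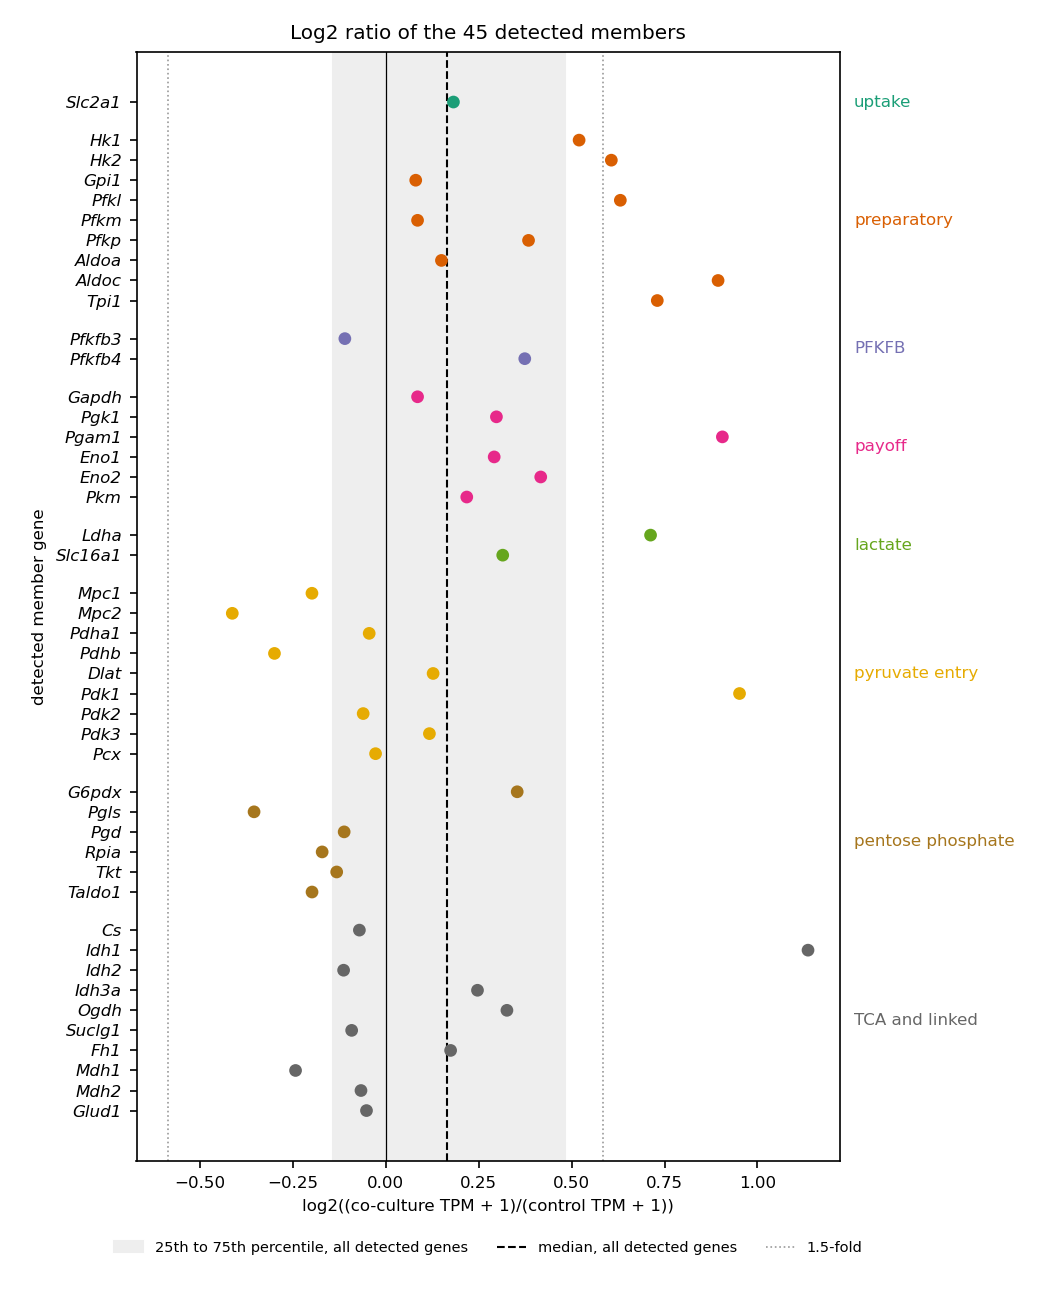
Log2 ratio of each detected member (horizontal axis), coloured by role, with the median (0.17, dashed) and the 25th to 75th percentile band (-0.14 to 0.48, grey) of all 11258 detected genes and 1.5-fold marked by dotted lines. In the deposited TPM the preparatory and payoff points all lie right of 0 (12 of 15 after median ratio scaling and 11 after TMM scaling), 5 of the 6 pentose phosphate points lie left of it, and Idh1 lies farthest right at 1.14. Of all detected genes 64.5% were higher and 35.4% lower in the deposited TPM. With the median ratio and TMM scalings 6245 and 5553 of them were higher.

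Glucose enters cells through transporters of the GLUT family. Slc2a1, which encodes the widespread GLUT1, had 147 TPM in co-culture and 129 TPM in control, a log2 ratio of 0.18, close to the median of all genes. It was -0.0067 with TMM scaling. Slc2a3, which encodes the high-affinity GLUT3, was not detected, at 0.04 TPM in both libraries. Among family genes outside the list, Slc2a12 (GLUT12) had 112 TPM in co-culture and 58.7 TPM in control, a log2 ratio of 0.91. Slc2a6 (GLUT6) had 2.01 and 6.69 TPM, a ratio of -1.35. Slc2a1 thus made up 54.2% of the TPM summed over 8 GLUT genes in co-culture and 62.9% in control, and Slc2a12 41.2% and 28.6%.

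Hexokinases phosphorylate glucose and trap it in the cell. Hk1 had 61.4 TPM in co-culture and 42.5 TPM in control (log2 ratio 0.52), and Hk2, the isoform often raised in tumours, had 53.9 and 35.0 TPM (0.61). The isoforms moved side by side, since Hk2 took 46.8% of the hexokinase TPM in co-culture and 45.2% in control. Hk3 and Hkdc1 were listed at 0 in both libraries. Gpi1, the isomerase that follows, had 513 TPM in co-culture and 485 TPM in control (0.08), and its ratio was below 0 with both the median ratio and the TMM scaling.

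Phosphofructokinase commits sugar to glycolysis and has liver (Pfkl), muscle (Pfkm) and platelet (Pfkp) forms. Pfkl had 201 TPM in co-culture and 129 TPM in control, a log2 ratio of 0.63. Pfkp had 112 and 85.5 TPM (0.38), and Pfkm 36.6 and 34.5 TPM (0.09). Pfkl therefore held 57.5% of the step in co-culture and 51.9% in control, while Pfkm held 10.5% and 13.8%. The bifunctional PFKFB enzymes set the level of fructose 2,6-bisphosphate, which activates phosphofructokinase, and all were low. Pfkfb4 had 7.06 TPM in co-culture and 5.22 TPM in control (0.37), and Pfkfb3 had 2.65 and 2.94 TPM (-0.11).

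Aldolase and triose phosphate isomerase close the preparatory phase. Aldoa carried nearly the whole aldolase step, at 98.8% of its TPM in co-culture and 99.3% in control, with 2575 and 2321 TPM and a log2 ratio of 0.15. Aldoc, known as the brain form, had 32.2 TPM in co-culture and 16.9 TPM in control (0.89), so the minor isoform had the larger ratio. Tpi1, which interconverts the triose phosphates and has no isoform gene in the list, had 1631 TPM in co-culture and 983 TPM in control (0.73). Of all detected genes 11.7% had a ratio at or above that of Tpi1.

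In the payoff phase, neighbouring steps differed by unequal amounts. Pgam1, a phosphoglycerate mutase at chr19:41911923-41918660 on the plus strand (GENCODE M21, GRCm38), had 849.9 TPM in co-culture and 453 TPM in control, a log2 ratio of 0.91 that 6.71% of detected genes reached. Gapdh, which oxidises glyceraldehyde 3-phosphate, had 3756 and 3540.5 TPM (0.09), and was below 0 with the median ratio and TMM scalings. Pgk1, the phosphoglycerate kinase, had 2908 TPM in co-culture and 2366 TPM in control (0.30). Eno1, the main enolase, had 1705 and 1393 TPM (0.29), and Eno2, the neuronal enolase, 20.6 and 15.2 TPM (0.42). Outside the list, Eno3 had 148.5 and 149.8 TPM (-0.01), or 5.10% and 6.19% of the enolase TPM. Pkm, the pyruvate kinase gene, had 2716 and 2335 TPM (0.22), and Pklr was listed at 0. The table is per gene, so the M1 and M2 splice forms of Pkm were not separated.

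Near-identical copies hold much of the signal at some of these steps. Processed pseudogenes and other genes that match a member over at least 300 bases at 95% identity or more summed to 10188 TPM in co-culture and 8588 TPM in control for Gapdh, more than the gene itself. The pseudogene Gm13394 alone stood at 6743 and 5849 TPM. For Eno1 the copies Eno1b and Gm4735 had 1036 and 1571 TPM in co-culture and 863 and 1339 TPM in control. How the authors' processing divided shared reads between such rows is not known, so the levels of Gapdh and Eno1 are uncertain. With the copies added, the log2 ratio was 0.20 for Gapdh and 0.26 for Eno1. The median ratio and TMM scalings shift log2 ratios by -0.12 and -0.19. The value of Gapdh below 0 with them thus holds for its own row and not for the sum with its copies. Pgam1 had a copy, Pgam1-ps2, at 102 and 35.2 TPM, and its ratio was 0.96 with it. A copy of Pgk1, Pgk1-rs7, had 66.2 TPM in co-culture and 1.62 TPM in control, and its addition gave a ratio of 0.33. Tpi1 and Ldha had no detected copy, and each of their single matches was listed at 0 in both libraries.

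Of the lactate dehydrogenase genes Ldha, Ldhb and Ldhc, only Ldha was detected. Ldha, at chr7:46841475-46855627 on the plus strand, encodes the form that favours the reduction of pyruvate to lactate. It had 3335 TPM in co-culture and 2035 TPM in control, a log2 ratio of 0.71. Its rank among all rows was 43 in co-culture and 95 in control, and in co-culture it stood above Pgk1, Pkm and Aldoa, below which it stood in control. Ldhb, the heart form, was not detected, at 0.04 TPM in co-culture and 0.20 TPM in control, and Ldhc was listed at 0. Among the proton-linked monocarboxylate transporters that carry lactate, Slc16a1 (MCT1) had 73.8 and 59.2 TPM (0.31). Slc16a3 (MCT4), often described as the lactate exporter of glycolytic cells, was not detected, at 0.06 TPM in co-culture and listed at 0 in control. Bsg (basigin), the chaperone of these transporters, had 782 TPM in co-culture and 673 TPM in control.

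Most members of pyruvate entry were lower in co-culture, while Pdk1, Dlat and Pdk3 were higher, of which Pdk1 alone was higher with TMM scaling. Mpc1 and Mpc2 form the mitochondrial pyruvate carrier. Mpc1 had 95.7 TPM in co-culture and 110.0 TPM in control (log2 ratio -0.20), and Mpc2 had 31.2 and 41.9 TPM (-0.41), the lowest ratio of any detected member. Of the pyruvate dehydrogenase subunits, Pdhb (E1 beta) had 129 and 159 TPM (-0.30), Pdha1 (E1 alpha) 68.4 and 70.6 TPM (-0.04) and Dlat (E2) 40.2 and 36.8 TPM (0.13). The further subunits Pdhx and Dld, outside the list, had ratios of -0.32 and -0.28. Pcx, pyruvate carboxylase, had 7.78 TPM in co-culture and 7.95 TPM in control (-0.03).

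Pyruvate dehydrogenase kinases switch the complex off by phosphorylation. Pdk1, at chr2:71873224-71903858 on the plus strand, had 36.1 TPM in co-culture and 18.2 TPM in control, a log2 ratio of 0.95 that 5.80% of detected genes reached. Pdk3 had 23.0 and 21.1 TPM (0.12), Pdk2 5.02 and 5.28 TPM (-0.06), and Pdk4 was listed at 0 in both libraries. Pdk1 was the most abundant kinase in co-culture, with 56.3% of their summed TPM, and Pdk3 in control, with 47.4%. The share of Pdk1 was 40.8% in control and that of Pdk3 35.8% in co-culture. Such shares do not depend on how the libraries are scaled. The phosphatases Pdp1 and Pdp2, which reverse the kinases, were low. Pdp1 had 6.42 TPM in co-culture and 6.02 TPM in control (0.08), and Pdp2 2.77 and 1.77 TPM (0.44).

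**Figure D3:**
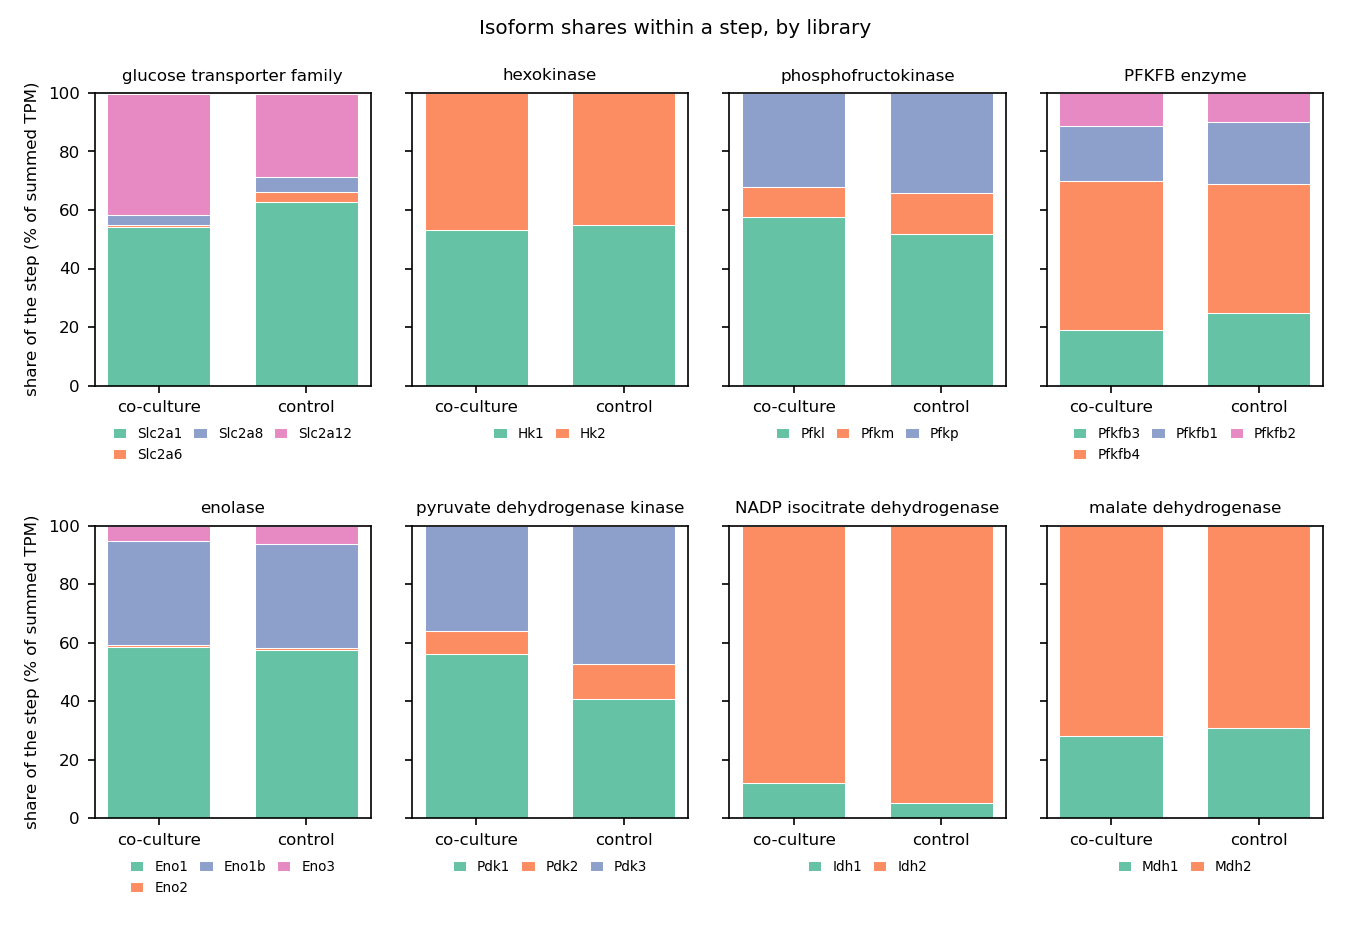
Share of each isoform in the summed TPM of its step (vertical axis, percent) in the co-culture library (left bar) and the control library (right bar) for 8 steps, with isoforms at or near 0 left out. Pdk1 fills 56.3% of its bar in co-culture and 40.8% in control, Idh1 12.2% and 5.22%, while the hexokinase bars differ by 1.56 points.

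The pentose phosphate genes split at their first step. G6pdx, the glucose 6-phosphate dehydrogenase that opens the oxidative branch, had 95.9 TPM in co-culture and 74.9 TPM in control (log2 ratio 0.35). The lactonase Pgls had 270.0 and 345 TPM (-0.35), and Pgd, the next dehydrogenase, 154 and 167 TPM (-0.11). All 3 members of the non-oxidative branch were lower, as were 35.4% of all detected genes. Transketolase, Tkt, had 253 TPM in co-culture and 278 TPM in control (-0.13), transaldolase, Taldo1, 112 and 128 TPM (-0.20), and Rpia, the ribose isomerase, 16.5 and 18.7 TPM (-0.17). The exons of G6pdx overlap those of Ikbkg on the opposite strand over 13.6% of their bases, and Ikbkg had 8.23 and 14.8 TPM. Outside the list, H6pd, the dehydrogenase of the endoplasmic reticulum, had 15.4 TPM in co-culture and 8.43 TPM in control (0.80). Prps2, a phosphoribosyl pyrophosphate synthetase, had 30.8 and 19.3 TPM (0.65), against 76.4 and 93.2 TPM for its homologue Prps1 (-0.28). Tigar, a phosphatase that lowers fructose 2,6-bisphosphate, had 3.92 and 7.77 TPM (-0.83).

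The NADP-dependent isocitrate dehydrogenases differed in opposite directions. Idh1, the cytosolic NADP-dependent form, lies at chr1:65158616-65186500 on the minus strand (GENCODE M21, GRCm38). It had 19.9 TPM in co-culture and 8.50 TPM in control, a log2 ratio of 1.14 that 3.30% of detected genes reached. It fell below 2-fold with TMM scaling (0.96) and with a pseudocount of 5 (0.88). Idh2, its mitochondrial counterpart, had 143 and 154 TPM (-0.11), and Idh3a, a subunit of the NAD-dependent enzyme of the cycle, 59.0 and 49.5 TPM (0.25). Idh1 made up 12.2% of the NADP-dependent pair in co-culture and 5.22% in control, and the summed TPM of the pair was 162 and 163. The malate dehydrogenases were both slightly lower. Mdh1 in the cytosol had 149 TPM in co-culture and 176 TPM in control (-0.24), and Mdh2 in mitochondria 379 and 397 TPM (-0.07). Exons of Mdh1 overlap those of Wdpcp on the opposite strand over 2.03% of their bases, and Wdpcp had 242 and 69.5 TPM.

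The remaining TCA members differed by at most 0.33 on the log2 scale. Citrate synthase, Cs, had 116 TPM in co-culture and 122 TPM in control (log2 ratio -0.07), and the succinyl-CoA ligase subunit Suclg1 106 and 113 TPM (-0.09). Ogdh, which oxidises alpha-ketoglutarate, had 51.6 and 41.0 TPM (0.33), and fumarase, Fh1, 71.7 and 63.4 TPM (0.17, below 0 with TMM scaling). Glud1, glutamate dehydrogenase, had 174 and 180.1 TPM (-0.05). The 7 mitochondrial cycle enzymes of the list summed to 926 TPM in co-culture and 940.2 TPM in control. Succinate dehydrogenase, outside the list, was uneven, with a median log2 ratio of 0.14 over its 4 subunits. The highest was Sdhd at 207 and 110 TPM (0.91) and the lowest Sdhb at 156 and 183 TPM (-0.23).

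In the fixed lists of other genes of these pathways, 48 of 70 were detected, with a median log2 ratio of 0.06. At least 1.5-fold higher were 6, and 4 were lower, beside backgrounds of 18.7% and 6.38%. By the 2-fold rule 1 was higher, beside a background of 4.95%. At least 2-fold lower were Slc2a6, Pck2 and Got1, beside a background of 2.14%. Among those at least 1.5-fold higher were Slc2a12, Sdhd, H6pd, Prps2 and Bpgm, and those at least 1.5-fold lower were Slc2a6, Tigar, Got1 and Pck2. Pck2, the mitochondrial phosphoenolpyruvate carboxykinase, had 30.1 TPM in co-culture and 93.4 TPM in control (-1.60). Got1, the cytosolic aspartate transaminase, had 42.0 and 85.0 TPM, which is at the 2-fold threshold, while its mitochondrial counterpart Got2 had 196 and 211 TPM (-0.11).

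Ratios between genes of the same library are free of scaling and set single genes or summed groups side by side. The ratio of a pair also moves when only its first gene differs. Ldha had 48.7 transcripts per transcript of Pdha1 in co-culture and 28.8 in control, and 25.9 and 12.8 per transcript of Pdhb. Per transcript of Pkm, itself glycolytic, Ldha had 1.23 in co-culture and 0.871 in control. Pdk1 had 0.527 per Pdha1 transcript in co-culture and 0.257 in control. Idh1 had 0.139 per Idh2 transcript in co-culture and 0.0551 in control. The summed TPM of the 15 glycolytic enzymes was 17172 in co-culture and 14236 in control, 18.5 and 15.1 times that of the 7 mitochondrial cycle enzymes. It was 19.0 and 14.1 times that of the pentose phosphate members. With the near-identical copies added, the glycolytic sum was 30137 TPM in co-culture and 25066 TPM in control, 32.6 and 26.7 times that of the cycle enzymes and 33.4 and 24.8 times that of the pentose phosphate members. All 48 members together took 2.33% of the co-culture library and 1.93% of the control library.

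**Figure D4:**
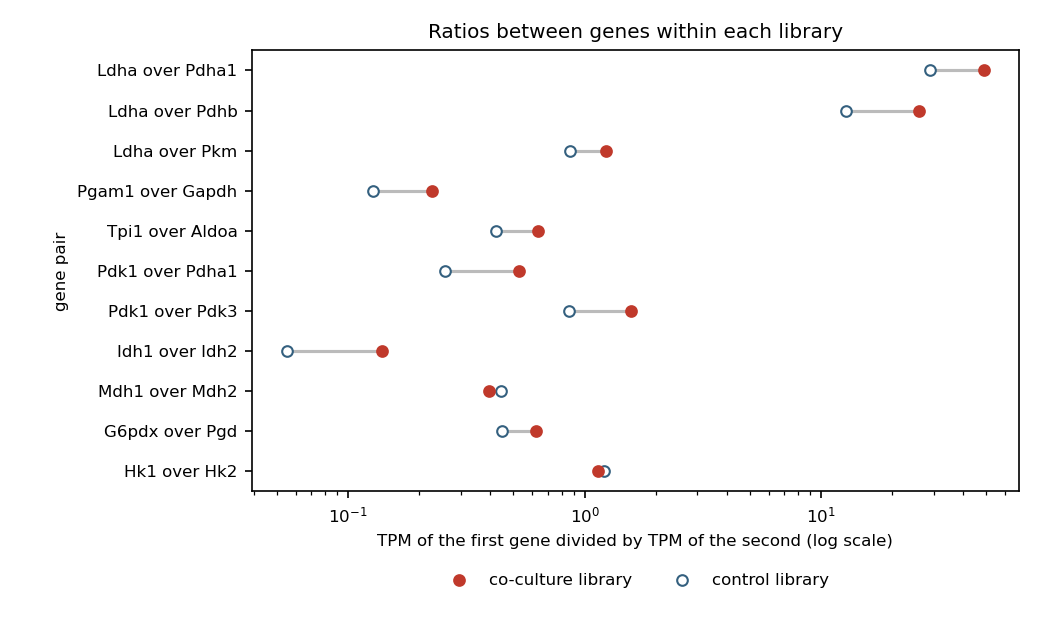
TPM of the first gene divided by TPM of the second (horizontal axis, log scale) for 11 gene pairs in the co-culture library (filled) and the control library (open), 1 library each. Ldha over Pdhb lay at 25.9 in co-culture and 12.8 in control and Idh1 over Idh2 at 0.139 and 0.0551, while Hk1 over Hk2 lay at 1.14 and 1.21.

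The promoters of the 6 members with the largest log2 ratios are printed. Each window runs from 250 bases before to 50 bases after a RefSeq start (GRCm38.p6), on the strand of the gene. Capitals mark ACGTG or GCGTG on either strand, the core letters of the element that hypoxia-inducible factors bind. The windows are chr1:65186430-65186729 on the minus strand for Idh1, chr2:71872974-71873273 on the plus strand for Pdk1 and chr19:41911621-41911920 on the plus strand for Pgam1. They are chr11:78322823-78323122 on the plus strand for Aldoc, chr6:124814109-124814408 on the minus strand for Tpi1 and chr7:46845554-46845853 on the plus strand for Ldha.
Idh1: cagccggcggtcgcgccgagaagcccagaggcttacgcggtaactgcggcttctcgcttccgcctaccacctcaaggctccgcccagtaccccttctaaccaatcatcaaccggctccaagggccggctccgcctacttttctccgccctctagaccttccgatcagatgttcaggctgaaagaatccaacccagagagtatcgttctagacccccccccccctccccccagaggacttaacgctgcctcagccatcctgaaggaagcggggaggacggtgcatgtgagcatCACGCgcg
Pdk1: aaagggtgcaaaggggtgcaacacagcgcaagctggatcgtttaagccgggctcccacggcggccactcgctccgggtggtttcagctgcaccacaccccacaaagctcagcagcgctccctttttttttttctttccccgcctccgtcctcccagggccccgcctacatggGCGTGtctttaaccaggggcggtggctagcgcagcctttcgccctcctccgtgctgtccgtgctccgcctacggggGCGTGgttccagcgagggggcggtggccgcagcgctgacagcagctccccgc
Pgam1: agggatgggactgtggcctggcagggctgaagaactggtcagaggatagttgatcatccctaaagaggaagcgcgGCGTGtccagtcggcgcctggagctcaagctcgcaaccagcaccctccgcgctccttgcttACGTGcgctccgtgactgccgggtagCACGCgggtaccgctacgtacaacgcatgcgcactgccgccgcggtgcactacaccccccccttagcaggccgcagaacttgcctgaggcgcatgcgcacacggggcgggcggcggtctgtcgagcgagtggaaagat
Aldoc: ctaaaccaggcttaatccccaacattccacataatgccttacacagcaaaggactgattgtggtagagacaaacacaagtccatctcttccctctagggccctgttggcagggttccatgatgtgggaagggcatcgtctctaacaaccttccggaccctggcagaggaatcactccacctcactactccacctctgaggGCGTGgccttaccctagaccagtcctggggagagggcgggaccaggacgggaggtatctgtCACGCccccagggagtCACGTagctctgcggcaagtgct
Tpi1: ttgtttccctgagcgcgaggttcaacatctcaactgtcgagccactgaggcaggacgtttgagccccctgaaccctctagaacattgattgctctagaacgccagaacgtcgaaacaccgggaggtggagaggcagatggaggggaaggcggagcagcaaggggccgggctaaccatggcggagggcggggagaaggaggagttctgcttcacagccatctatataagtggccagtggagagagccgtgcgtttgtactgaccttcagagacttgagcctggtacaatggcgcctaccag
Ldha: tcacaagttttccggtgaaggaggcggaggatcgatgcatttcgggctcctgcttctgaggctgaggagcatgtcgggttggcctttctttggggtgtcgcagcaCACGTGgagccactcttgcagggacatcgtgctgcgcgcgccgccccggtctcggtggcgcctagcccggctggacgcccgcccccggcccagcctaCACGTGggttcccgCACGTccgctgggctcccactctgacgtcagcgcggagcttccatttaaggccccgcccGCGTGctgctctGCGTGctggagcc

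These letters occurred in 5 of the 6 windows and not in that of Tpi1. Ldha had 7 matches, of which 4 are the paired strands of 2 copies of CACGTG, the E-box that MYC and other factors bind. Pgam1 and Aldoc had 3 matches each, Pdk1 had 2 and Idh1 had 1. The letters are common. At least one match was held by 79.7% of the 69 windows of members and by 43.8% of the 32851 windows of all genes. Counted per gene over its starts, 41 of 46 members with a window held a match, or 89.1%, against 46.7% of 27025 genes. Those members included all 6 pentose phosphate genes and 8 of 9 in the TCA group, so the match did not separate the branches. The median GC content was 61% over the windows of the members and 52.7% over all windows, and the part of GC content in this difference was not tested. The count per gene favours genes with more windows, and there were 69 for 46 members against 32851 for 27025 genes. The background was not limited to detected genes. The part of either was not tested.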

How the data were processed

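RNA of 2 libraries, 1 per group, was analysed from a single deposited table. The authors deposited TPM values, rounded to 2 decimals, for 52796 rows. Of these, 884 are assembled loci without coordinates, which were left out. Per the submitters' processing notes, HISAT2 2.1.0, RSEM 1.2.31 and GRCm38.p5 were used, in roles that are not stated. The sources used here give no annotation, strandedness or filters, and reads shared by overlapping or near-identical genes cannot be told apart. Symbols and positions came from GENCODE M21 (GRCm38), which named 51633 of 51912 Ensembl rows. Promoters came from RefSeq, with a window for 46 members. Where RefSeq gave several starts, the printed one had most GENCODE starts within 100 bases. Log2 ratios used a pseudocount of 1, which understates changes of low genes. Thresholds were 1.5-fold and 2-fold. Copies were sought with BLAST+ 2.17.0, and other steps used Python 3.11.15 with pandas 2.3.3. The computation of ratios was checked on simulated data with known effects. That of TMM scaling was checked only on control values multiplied by a constant, which leaves its trimming untried. Neither check can show that the methods suit these libraries. No test between groups, interval or detection floor was possible.

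The members and gene lists were chosen with earlier results of these data known. Named were all members, other pathway genes at least 1.5-fold different, isoforms of a member's step and the defining markers, of which some genes are not reported here. Bsg, Got2, Prps1, Sdhb, Pdhx, Dld, Pdp1, Pdp2, 5 epithelial and 4T1 markers, overlapping genes and copies were named after their values were seen. Alternatives were pseudocounts of 0.1 and 5, no filter, a minimum mean of 10 TPM, 3 scalings of the libraries, means, sums without the top member, and other isoform sets. Summing with copies was added after the data were seen.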

Additional observations from a re-analysis of the deposited data

How the results depend on the processing

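No paired analysis was possible because each group had 1 library, and leaving a library out would have emptied its group. Pseudocounts and filters cannot change the sign of a ratio, and the largest log2 shift by a scaling was -0.19, less than 1.5-fold. The 8 members at least 1.5-fold higher therefore had to keep their sign. The count of members at least 2-fold higher was 0 in place of 1 with a pseudocount of 5 and with TMM scaling. With TMM scaling 4 members in place of 8 were 1.5-fold higher and 1 was 1.5-fold lower. Of all 11258 detected genes, 345 were 2-fold higher with that scaling, 1230 were 1.5-fold higher and 1168 were 1.5-fold lower. Of the other pathway genes, 1 in place of 3 was 2-fold lower with a pseudocount of 5, and 2 in place of 4 were 1.5-fold lower at a mean of at least 10 TPM. Their median of 0.06 became -0.0339 with median ratio scaling, -0.10 with TMM scaling and 0 with no filter. With TMM scaling the medians of the glucose transporters and the PFKFB genes became -0.0067 and -0.0184, and the summed TPM of the glucose transporters had a log2 ratio of -0.0068. Means in place of medians gave 0.0168 for pyruvate entry and 0.12 for the TCA group. Without their more abundant members, the PFKFB and glucose transporter members left Pfkfb3 alone at a log2 ratio of -0.15 and Slc2a3 alone at 0. Among members only, the co-culture minus control difference in share was 0.0037 points for Slc2a1, -0.12 for Eno1, and -8.74 and 8.74 for Pfkfb3 and Pfkfb4. No PFKFB gene reached a mean of 10 TPM, so that filter gave no median for them. Other alternatives left the group medians and the log2 ratios of the sums on the same side of 0. All the scalings lowered the ratios, so values below 0 could not cross it with them. The unknown depth limits what can be read from genes near 0.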
